A study of Homo sapiens with 4 samples.

Results

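Interstitial and minor collagens are the collagen chains outside the basement membrane type IV genes, COL7A1 and COL17A1. They were taken as every row of the count table whose symbol has the form COL, a number, A and a number, leaving out the COL4A genes, COL7A1 and COL17A1, which gave 36 of 25369 genes. The table holds poly(A) RNA of H226, an established line of human lung squamous cell carcinoma carrying a doxycycline-inducible short hairpin RNA. In the shControl group (2 libraries) the hairpin was non-targeting. In the shp63 group (2 libraries) it was directed at p63, a transcription factor of basal epithelial cells. All 4 libraries came from cells kept for 6 days in 1 µg/mL doxycycline. The labels name 1 construct per group, so that effects of the hairpin sequence and of p63 loss cannot be told apart. The comparison asks which collagen transcripts differ when p63 is targeted.

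Collagens are secreted proteins in which chains wind around each other in a triple helix. The helix needs a glycine in each repeat of Gly-X-Y, and the collagen classes differ in how long that repeat is and in what the finished molecule builds. Fibrillar collagens form the fibrils of connective tissue, FACITs (fibril-associated collagens with interrupted triple helices) sit on fibril surfaces, and other classes form beaded filaments, hexagonal networks or membrane-bound or proteoglycan-like molecules. Fibroblasts are the main makers of interstitial collagen, and epithelial tumour cells can make several of its chains.

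The repeat can be read in the coding sequence as a GGN codon, which encodes glycine, at the start of each Gly-X-Y repeat. The stretches printed here are the first 54 bases of the longest such run in the GENCODE reference transcript (GRCh37) of the 4 genes with the largest rises or falls or the largest gain in reads. They show the feature that makes each of these genes a collagen, and capitals mark the glycine codon that opens each repeat (a glycine elsewhere in a repeat stays in lower case).
COL8A1: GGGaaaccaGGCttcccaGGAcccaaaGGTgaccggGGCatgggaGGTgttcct
COL21A1: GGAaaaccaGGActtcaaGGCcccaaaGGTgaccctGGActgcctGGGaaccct
COL5A1: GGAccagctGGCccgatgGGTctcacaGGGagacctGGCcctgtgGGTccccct
COL2A1: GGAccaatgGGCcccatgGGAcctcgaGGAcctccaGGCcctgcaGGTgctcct
The longest uninterrupted run held 61 such glycine codons in COL8A1, 113 in COL21A1, 338 in COL5A1 and 339 in COL2A1. Over the 34 genes whose reading frame matched the annotation, the run spanned 216 to 343 glycine codons in the 11 fibrillar genes and 28 to 113 in the other classes. Genes with long runs and genes with short runs were found among both those that rose and those that fell.

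Library totals were 51926832 to 53924761 counted reads. The targeted gene, TP63, was counted 7533 and 7364 times in shControl and 1596 and 1530 times in shp63. All 7 squamous epithelial markers were tested, and 6 fell while KRT6A rose, where 37.1% of all genes tested were lower and 36.9% higher. TP63, the target of the hairpin, is 1 of the 6. SOX2, with 14 and 11 against 1 and 3 reads, passed the filter only through shControl. The summed level of the list was 1010 to 1117 CPM (read counts scaled to library size and composition) in shControl and 224 to 237 CPM in shp63. KRT5 made up 757 and 148 CPM of these on average, and TP63 136 and 30.6 CPM. Of 10 fibroblast markers 7 had fewer than 2 libraries with 10 reads, and DCN, DPT and TCF21 were at 0 in every library. The fibroblast list summed to 378 to 395 CPM in shControl and 832 to 847 CPM in shp63. FBLN1, a matrix glycoprotein gene, made up 371 and 821 CPM of these on average. Of 3 tested fibroblast markers 2 were higher, FBLN1 and FAP (1.20-fold, from 15.5 to 18.6 CPM on average), where 36.9% of all genes tested were. PDGFRB went from 25 and 19 reads to 5 and 4 and passed the filter only through shControl. Leukocyte markers (8 genes) summed to 14.8 to 16.3 CPM in shControl and 81.6 to 85.3 CPM in shp63. Of 5 tested 4 were higher, CD14 and CD68 among them, where 36.9% of all genes tested were. LYZ (1 and 1 against 33 and 21 reads), also among the 4, passed the filter only through shp63. ITGAM was lower (41 and 35 against 15 and 13 reads) and PTPRC had 8 reads or fewer. Mesothelial markers (7 genes) summed to 415 to 440 and 678 to 684 CPM, with WT1 and CALB2 at 8 reads or fewer. Of this list MSLN and UPK3B rose, while BNC1 fell 1.68-fold from 80.2 to 47.7 CPM on average. Endothelial markers (5 genes) summed to 59.9 to 65.0 and 190 to 191 CPM, mostly CDH5. Of 3 tested, CDH5 and PECAM1 (1.81-fold) were higher, where 36.9% of all genes tested were, while VWF fell 3.57-fold. The part of these marker differences in the collagen results was not tested. In bulk RNA, fewer cells of a type and less RNA per cell cannot be told apart.

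Of the 36 collagen genes 22 had 10 or more reads in at least 2 libraries, and the same 22 passed the low-count filter of the test. Of these 8 were higher in shp63, 7 were lower and 7 did not pass an adjusted p of 0.05 (edgeR quasi-likelihood test, Benjamini-Hochberg over 14901 genes). The share called, 15 of 22, lay near the background: over all genes tested 74% were called in either direction, 36.9% as higher and 37.1% as lower. Tested against a 1.5-fold change (glmTreat), 9 collagen genes were called, 6 higher and 3 lower, where 22.7% of all genes were (12.7% higher and 10% lower). Of the 15 called before, COL1A1, COL12A1, COL6A1, COL9A2, COL9A3 and COL15A1 did not pass this test. The median log2 fold change was 0.30 over the 22 genes and -0.01 over all genes tested. COL11A1 and COL8A2 passed the filter only through the shp63 libraries, and COL10A1 reached it in 1 of its shControl libraries, so the 22 are not a neutral sample of the 36. The groups did not overlap for 19 of the 22 genes, against 86.4% of all genes tested. Among the 19 is COL6A3, with 13 reads in each library, whose groups were set apart only by the scaling (0.234 and 0.242 against 0.250 and 0.259 CPM). For 1 gene at a time, 2 libraries against 2 allow an exact two-sided permutation p no lower than 0.333, and the calls rest on the spread that edgeR shares across genes.

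**Figure D1:**
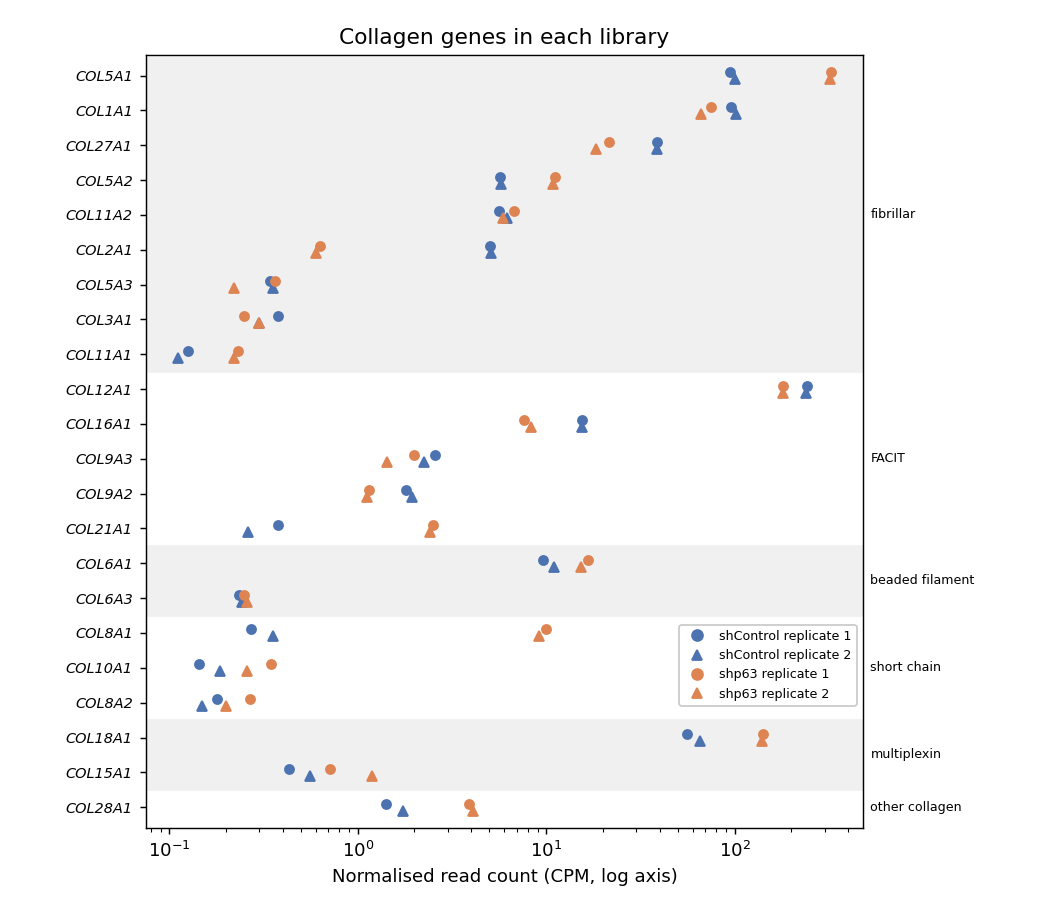
Normalised read count (CPM, log axis) of the 22 tested collagen genes in each library, ordered by class, with shControl in blue, shp63 in orange, circles for replicate 1 and triangles for replicate 2. COL8A1, COL21A1 and COL2A1 show the widest gaps between the groups, and COL11A2, COL5A3 and COL3A1 overlap.

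Fibrillar collagens moved in both directions, with 2 of 9 tested genes higher (COL5A1 and COL5A2), 3 lower (COL1A1, COL27A1 and COL2A1) and 4 not past the threshold. Over all genes tested 36.9% were higher and 37.1% lower. COL5A1, the alpha-1 chain of type V collagen, which sits inside type I fibrils and limits their diameter, had 5230 and 5387 reads in shControl and 16799 and 16051 in shp63. Both shp63 libraries lay far above both shControl libraries. Its level rose 3.31-fold, from 97.3 ± 4.16 to 322 ± 1.98 CPM (mean ± SD of 2 libraries per group; log2 fold change 1.73, SE 0.033; edgeR adjusted p = 2.10e-21). The gene spans chr9:137533649-137736689 (GRCh37, plus strand).

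COL5A2, the alpha-2 chain of the same collagen, had 315 and 310 reads in shControl and 577 and 543 in shp63, again without overlap. It rose 1.91-fold, from 5.72 ± 0.0605 to 11.0 ± 0.185 CPM (mean ± SD of 2 libraries per group; edgeR adjusted p = 4.07e-10). The third chain gene of type V, COL5A3, was near the floor, with 19 and 19 reads in shControl and 19 and 11 in shp63, and its groups overlapped (log2 fold change -0.24, SE 0.359).

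COL2A1, the chain of cartilage type II collagen, was the tested member with the largest fall. It had 279 and 275 reads in shControl and 33 and 30 in shp63. Its level fell 8.20-fold, from 5.07 ± 0.0593 to 0.616 ± 0.0255 CPM (mean ± SD of 2 libraries per group; log2 fold change -3.04, SE 0.156; edgeR adjusted p = 8.47e-14), so that a transcript at a low level in shControl was nearer the detection floor in shp63. COL2A1 spans chr12:48366750-48398337 (GRCh37, minus strand).

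COL27A1, a fibrillar collagen gene also of cartilage, had 2153 and 2078 reads in shControl and 1127 and 918 in shp63. This was a fall of 1.94-fold, from 38.7 ± 0.123 to 20.0 ± 2.37 CPM (mean ± SD of 2 libraries per group; edgeR adjusted p = 2.56e-11). COL1A1, the alpha-1 chain of type I collagen, the main fibril protein of skin and bone, had 5329 and 5445 reads in shControl and 3890 and 3338 in shp63. Its fall was smaller, 1.40-fold, from 98.7 ± 3.66 to 70.7 ± 5.80 CPM (mean ± SD of 2 libraries per group; edgeR adjusted p = 3.85e-08), and was not called beyond 1.5-fold. Neither gene's groups overlapped.

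The remaining fibrillar genes did not pass the threshold. COL11A2, a type XI chain of cartilage fibrils, had 311 and 335 reads in shControl and 350 and 295 in shp63, with overlapping groups (log2 fold change 0.09, SE 0.096; edgeR adjusted p = 0.387). COL11A1, its partner chain, had 7 and 6 reads against 12 and 11. COL3A1, the type III chain of elastic connective tissue and a common fibroblast transcript, had 21 and 16 reads against 13 and 15, with overlapping groups. COL1A2 and COL24A1 were not tested, with at most 13 and 2 reads in any library respectively.

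**Figure D2:**
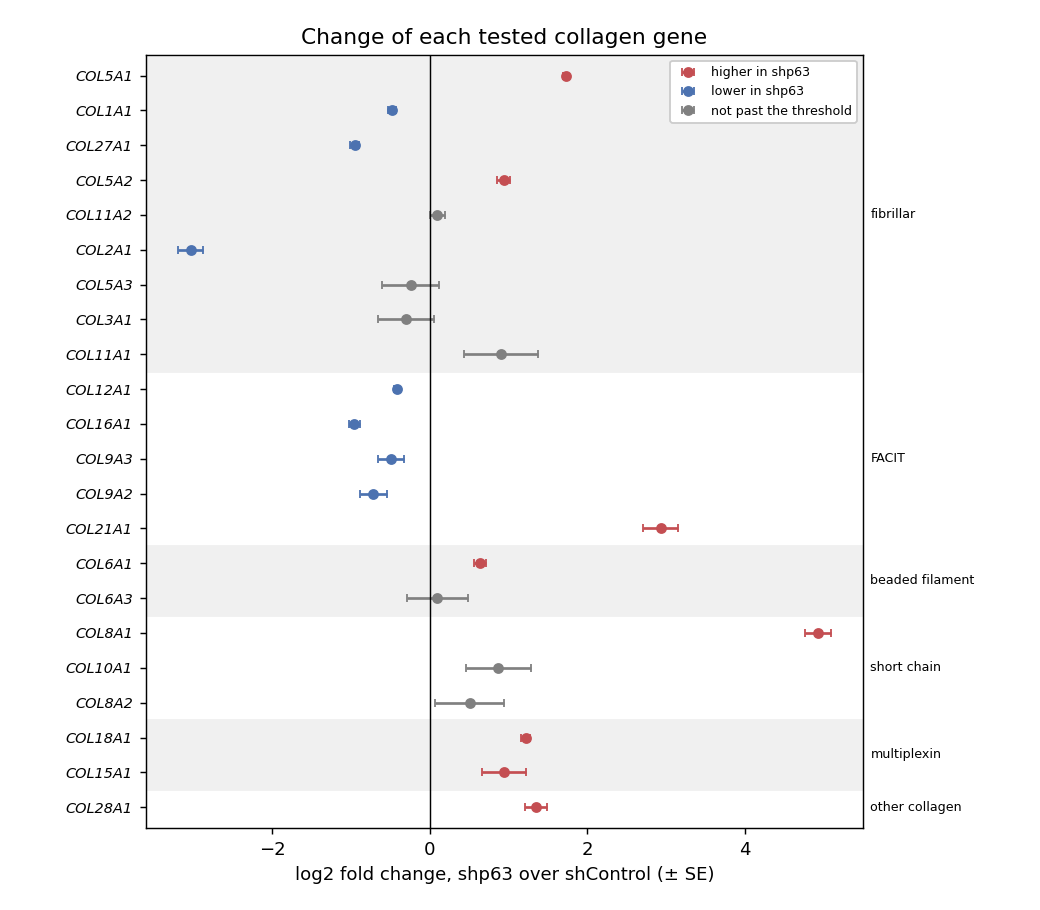
log2 fold change of shp63 over shControl for the 22 tested collagen genes, with bars of 1 standard error, red for genes called higher, blue for genes called lower and grey for genes not past the threshold. The values run from -3.04 for COL2A1 to 4.93 for COL8A1, and the grey genes other than COL11A2 have wide bars because they rest on few reads.

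Among FACITs 4 of 5 tested genes fell and COL21A1 rose, where 37.1% of all genes tested were lower and 36.9% higher. Of the 4 that fell, only COL16A1 was called beyond 1.5-fold. COL12A1, the type XII chain that bridges fibrils and surrounding matrix, had more reads than any other member in shControl, 13502 and 12848, and 9384 and 9021 in shp63. It fell 1.34-fold, from 241 ± 3.19 to 180 ± 0.330 CPM (mean ± SD of 2 libraries per group; log2 fold change -0.42, SE 0.029; edgeR adjusted p = 1.47e-11), a difference larger than the replicate spread but not called beyond 1.5-fold. COL16A1, the type XVI chain, had 854 and 836 reads in shControl and 398 and 417 in shp63. Its level fell 1.94-fold, from 15.5 ± 0.106 to 7.98 ± 0.471 CPM (mean ± SD of 2 libraries per group; edgeR adjusted p = 3.76e-11).

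Type IX collagen decorates cartilage fibrils, and 2 of its 3 chain genes could be tested. COL9A2 had 100 and 104 reads in shControl and 60 and 56 in shp63, a 1.64-fold fall (edgeR adjusted p = 0.000749). COL9A3 had 143 and 121 reads against 103 and 72, a 1.41-fold fall (edgeR adjusted p = 0.00979). Its call ended with DESeq2 (adjusted p = 0.108), without shControl replicate 1 (edgeR adjusted p = 0.0577) and without shp63 replicate 2 (edgeR adjusted p = 0.173), where its log2 fold change of -0.50 became -0.29. COL9A3 also overlaps TCFL5 on the opposite strand, and the strand setting of the counting is not given in the sources used here.

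COL21A1, the type XXI chain, a small FACIT of vessel walls, had 21 and 14 reads in shControl and 130 and 121 in shp63. All shp63 values stood well above the shControl values. The level rose 7.62-fold, from 0.320 ± 0.0837 to 2.46 ± 0.0606 CPM (mean ± SD of 2 libraries per group; log2 fold change 2.93, SE 0.219; edgeR adjusted p = 6.25e-11). COL21A1 spans chr6:55921388-56258892 (GRCh37, minus strand). The other FACIT genes were not tested: COL22A1 had 2 and 2 reads against 7 and 9, COL20A1 7 or fewer, and COL14A1, COL19A1 and COL9A1 at most 1 read in any library.

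The largest change among the tested members was that of COL8A1, a short-chain collagen of hexagonal networks, found under endothelium and in Descemet's membrane of the cornea. It was counted only 15 and 19 times in shControl and 518 and 457 times in shp63. Its level rose 30.4-fold, from 0.312 ± 0.0586 to 9.54 ± 0.596 CPM (mean ± SD of 2 libraries per group; log2 fold change 4.93, SE 0.159; edgeR adjusted p = 2.12e-17). COL8A1 spans chr3:99357319-99518070 (GRCh37, plus strand). Its partner chain COL8A2 had 10 and 8 reads against 14 and 10 (log2 fold change 0.51, SE 0.440; edgeR adjusted p = 0.306). COL10A1, the type X chain of hypertrophic cartilage, had 8 and 10 reads against 18 and 13 (log2 fold change 0.87, SE 0.416; edgeR adjusted p = 0.0643) and overlaps NT5DC1 on the opposite strand.

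Both multiplexins, basement-membrane-zone collagens that carry heparan or chondroitin sulphate chains, rose, where 36.9% of all genes tested were higher. COL18A1, whose C-terminal end is the source of the angiogenesis inhibitor endostatin, had 3113 and 3503 reads in shControl and 7395 and 7017 in shp63. This was a 2.33-fold rise, from 60.7 ± 6.38 to 141 ± 1.56 CPM (mean ± SD of 2 libraries per group; log2 fold change 1.22, SE 0.056; edgeR adjusted p = 3.90e-10). The span of COL18A1, chr21:46825080-46933634 (GRCh37, plus strand), overlaps SLC19A1 and the antisense genes COL18A1-AS1 and COL18A1-AS2 on the opposite strand. Both antisense genes had 0 reads in every library.

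COL15A1, the other multiplexin, had 24 and 30 reads in shControl and 37 and 60 in shp63. Its 1.92-fold rise (log2 fold change 0.94, SE 0.278; edgeR adjusted p = 0.00452) leaned on shp63 replicate 2, without which the log2 fold change was 0.52 (edgeR adjusted p = 0.179), and DESeq2 did not call it (adjusted p = 0.0707). COL28A1, a type XXVIII chain, had 78 and 93 reads against 203 and 204. It rose 2.54-fold, from 1.57 ± 0.229 to 3.99 ± 0.118 CPM (mean ± SD of 2 libraries per group; edgeR adjusted p = 1.36e-08).

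Type VI collagen forms beaded microfilaments close to cells. COL6A1, its alpha-1 chain, had 533 and 588 reads in shControl and 868 and 764 in shp63. It rose 1.56-fold from 10.3 ± 0.937 to 16.0 ± 1.02 CPM (mean ± SD of 2 libraries per group, edgeR adjusted p = 5.91e-08), and was not called beyond 1.5-fold. COL6A3, the large alpha-3 chain, had 13 reads in each of the 4 libraries. COL6A2 had 1 read in each shControl library and 0 in shp63, COL6A5 at most 2 reads, and COL6A6 0 reads in all 4 libraries, which allows up to 3 reads or 0.0541 to 0.0598 CPM per library.

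Transmembrane collagens had few reads in any library. COL13A1, found at cell adhesions and the neuromuscular junction, had 2 and 1 reads in shControl and 5 and 8 in shp63. COL25A1, expressed in neurons, had 0 and 0 reads against 3 and 1, and COL23A1 had 0 and 3 against 0 and 0. COL26A1, which belongs to none of these classes, had 3 reads in 1 shControl library and 0 elsewhere. At this depth no difference could be measured for COL25A1, COL23A1 and COL26A1.

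Several collagens are built from different chains of 1 type, and the counts of such partners were often far apart. Per kilobase of reference transcript, the COL5A1 level was 13.7 ± 0.443 times that of COL5A2 in shControl and 23.7 ± 0.255 times in shp63 (mean ± SD of 2 libraries per group), so COL5A1 gained on its partner while both rose. COL1A1 had 3338 reads or more in each library while COL1A2, the chain it pairs with in ordinary type I collagen, had 13 and 3 reads in shControl and 3 and 6 in shp63. COL6A1 stood at 108 ± 7.50 times the per-kilobase level of COL6A3 in shControl and 157 ± 14.2 times in shp63. COL8A1 was 1.64 ± 0.524 times COL8A2 per kilobase in shControl and 35.0 ± 5.21 times in shp63. The ratios to COL6A3 and COL8A2 rest on few reads of those chains. COL6A3 had 13 reads in each library, and COL8A2 had 10 and 8 against 14 and 10. An SD of 2 libraries can therefore understate the counting error of these ratios. COL9A2 and COL9A3 were both detected, with a per-kilobase ratio of COL9A3 to COL9A2 of 1.48 ± 0.215 in shControl and 1.71 ± 0.348 in shp63, and COL9A1 had 1 read in 1 of the 4 libraries. These ratios are descriptions of transcript counts, and the protein chains were not measured.

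**Figure D3:**
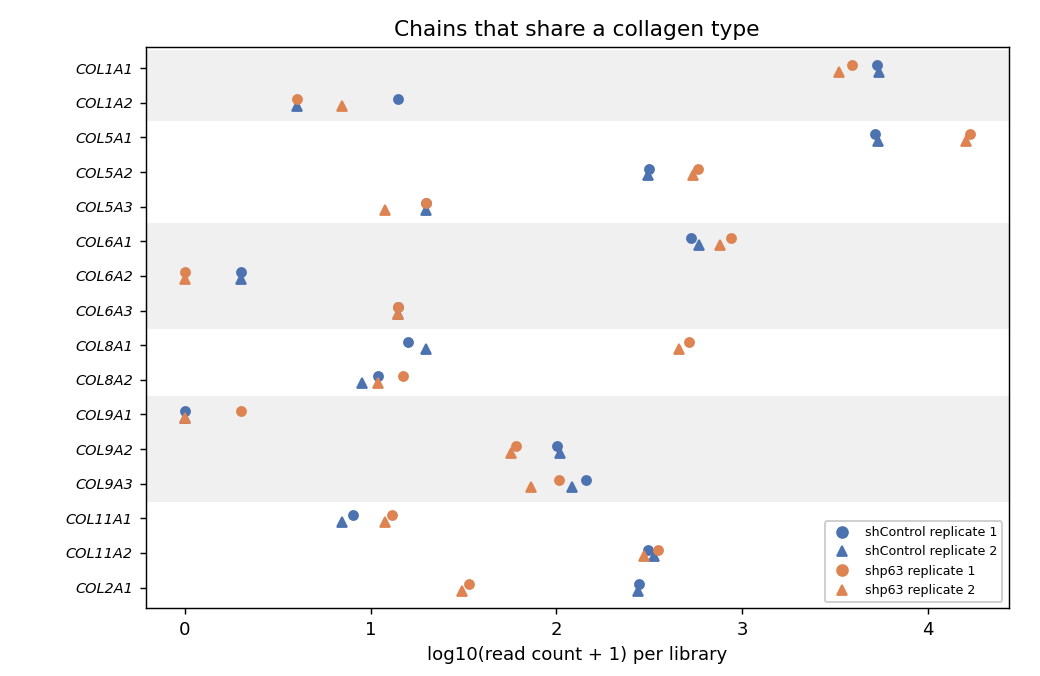
Read counts, as log10(count + 1), of collagen chains that share a type or fibril, per library, with shControl in blue, shp63 in orange, circles for replicate 1 and triangles for replicate 2. COL1A2, COL6A2 and COL9A1 lie far to the left while COL1A1 and COL6A1 lie between 2 and 4, and COL8A1 moves away from COL8A2 in shp63; equal counts lie on top of each other, as for COL6A3.

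On the per-kilobase scale the order of the highest members differed between shControl and shp63. In shControl COL12A1 was highest at 20.6 ± 0.272 CPM per kilobase (SD, n = 2), followed by COL1A1 at 16.7 ± 0.619, COL5A1 at 11.5 ± 0.493 and COL18A1 at 11.2 ± 1.18. COL5A1 and COL18A1 did not differ beyond their spread there. In shp63 COL5A1 was highest at 38.1 ± 0.234 CPM per kilobase (SD, n = 2), followed by COL18A1 at 26.1 ± 0.288, COL12A1 at 15.4 ± 0.0282 and COL1A1 at 12.0 ± 0.981, each apart from its neighbour by more than the spread. COL8A1 went from 0.0566 to 1.73 CPM per kilobase and so came close to COL5A2, which was at 1.61 in shp63.

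The 36 genes together made up 0.0595% and 0.0616% of counted reads in shControl and 0.0786% and 0.0760% in shp63. Their summed level was 579 and 597 CPM in shControl and 807 and 787 CPM in shp63. COL12A1 took 42.1% and 40.1% of these reads in shControl and 22.3% and 22.9% in shp63, while COL5A1 took 16.3% and 16.8% and then 40.0% and 40.7%. The share of COL18A1 went from 9.70% and 10.9% to 17.6% and 17.8%, and that of COL1A1 from 16.6% and 17.0% to 9.26% and 8.46%. Summed over its genes, the fibrillar class was at 252 ± 8.05 CPM in shControl and 431 ± 11.0 CPM in shp63, and the FACIT class at 261 ± 3.36 and 194 ± 0.406 CPM (mean ± SD of 2 libraries per group). Leaving out COL5A1, the fibrillar sum came to 155 ± 3.89 CPM for shControl against 109 ± 9.01 CPM for shp63, so its higher value in shp63 rested on that gene.

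**Figure D4:**
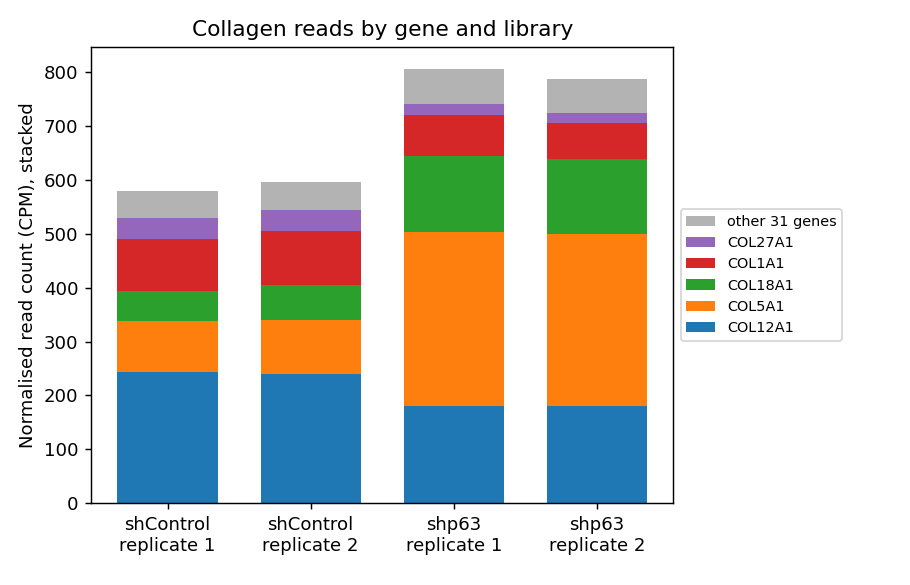
Stacked normalised read counts (CPM) of the 36 collagen genes in each library, with the 5 most abundant genes in colour and the other 31 in grey. The bars reach 579 and 597 CPM in shControl and 807 and 787 CPM in shp63, and COL5A1 replaces COL12A1 as the largest part.

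Collagen chains are modified, folded and exported before they form fibrils, and 48 genes of that path and of collagen recognition were followed as well. Of 40 tested, 22 rose (19 without a composition factor), 9 fell and 9 did not pass the threshold (edgeR, adjusted p under 0.05), which is 31 of 40 against the 74% called over all genes. Their median log2 fold change was 0.25, against -0.01 over all genes tested.

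Prolyl hydroxylation, which stabilises the helix, had 7 of 8 tested genes higher and none lower, where 36.9% of all genes were higher. The call of CRTAP, a subunit of the prolyl 3-hydroxylase complex (1.06-fold), ended without a composition factor, where its log2 fold change was -0.0014, and without shControl replicate 2 or shp63 replicate 2 (edgeR adjusted p = 0.965, 0.131 and 0.0646). P4HB, the beta subunit of prolyl 4-hydroxylase and also a general disulphide isomerase, rose 1.91-fold from 728 ± 5.55 to 1391 ± 1.90 CPM (mean ± SD of 2 libraries per group; edgeR adjusted p = 2.06e-16). P4HA1, a catalytic alpha subunit of the same enzyme, rose 2.17-fold from 36.8 ± 0.646 to 80.0 ± 1.46 CPM. LEPREL1, a prolyl 3-hydroxylase gene, was at 64.7 and 62.9 CPM and did not pass the threshold. Lysyl hydroxylation and glycosylation had 3 of 5 genes higher, with PLOD1 up 1.89-fold and PLOD3 up 1.57-fold. PLOD3 was not called beyond 1.5-fold.

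All 3 chaperone genes rose, where 36.9% of all genes tested were higher. FKBP14 rose 1.64-fold, FKBP10 1.13-fold and SERPINH1, the collagen chaperone HSP47, 1.09-fold. The SERPINH1 call ended without a composition factor (log2 fold change 0.033, edgeR adjusted p = 0.283). Genes of export from the endoplasmic reticulum divided, with SEC24D, a coat subunit of transport vesicles, up 2.00-fold and CTAGE5, a cargo receptor gene, up 1.21-fold, while KLHL12, an adaptor for large vesicles, fell 1.48-fold and SEC23A fell 1.16-fold.

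The enzymes that cut off the propeptides changed in opposite directions. BMP1, the procollagen C-proteinase, rose 2.08-fold from 69.7 ± 3.30 to 145 ± 7.48 CPM (mean ± SD of 2 libraries per group; edgeR adjusted p = 2.54e-15), and ADAMTS14, an N-proteinase, rose 2.25-fold from a low level of 1.23 CPM. The BMP1 relatives TLL1 and TLL2 fell 4.09-fold and 2.79-fold, from 1.33 and 0.633 CPM. PCOLCE2, an enhancer of C-proteinase activity, had 17 and 15 reads in shControl and 2 and 5 in shp63; it entered the test only through its shControl libraries, and DESeq2 did not call it (adjusted p = 0.0513). Of the 8 genes of this list only BMP1 was above 5 CPM in either group.

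Crosslinking enzymes were mixed, with LOXL2 up 1.42-fold from 38.0 ± 0.275 to 53.8 ± 0.946 CPM (mean ± SD of 2 libraries per group), LOX down 1.81-fold and LOXL3 down 1.80-fold. LOXL1 was at 5.54 and 6.20 CPM and did not pass the threshold. None of the crosslinking genes was called beyond 1.5-fold. Of the fibril-binding proteoglycans FMOD rose from 13 and 11 reads to 41 and 39, and BGN, DCN and LUM had 7 reads or fewer in every library.

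Among collagen receptors ITGB1, the beta-1 integrin subunit shared by the collagen-binding integrins and many others, rose 2.57-fold from 788 ± 0.464 to 2023 ± 19.9 CPM (mean ± SD of 2 libraries per group; edgeR adjusted p = 6.19e-19). DDR1, a receptor tyrosine kinase for collagen in epithelia, rose 1.56-fold from 870 ± 19.1 to 1356 ± 34.9 CPM, and was not called beyond 1.5-fold. ITGA2, the alpha subunit of the main epithelial collagen integrin, was at 48.0 and 49.1 CPM (edgeR adjusted p = 0.481). ITGA1 and the endocytic receptor gene MRC2 fell 1.13-fold and 1.22-fold, and both calls ended with DESeq2 (adjusted p = 0.116 and 0.235), without shControl replicate 2 (edgeR adjusted p = 0.304 and 0.134) and without shp63 replicate 1 (edgeR adjusted p = 0.121 and 0.185). The log2 fold change of ITGA1 went from -0.18 to -0.089 without shControl replicate 2.

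**Figure D5:**
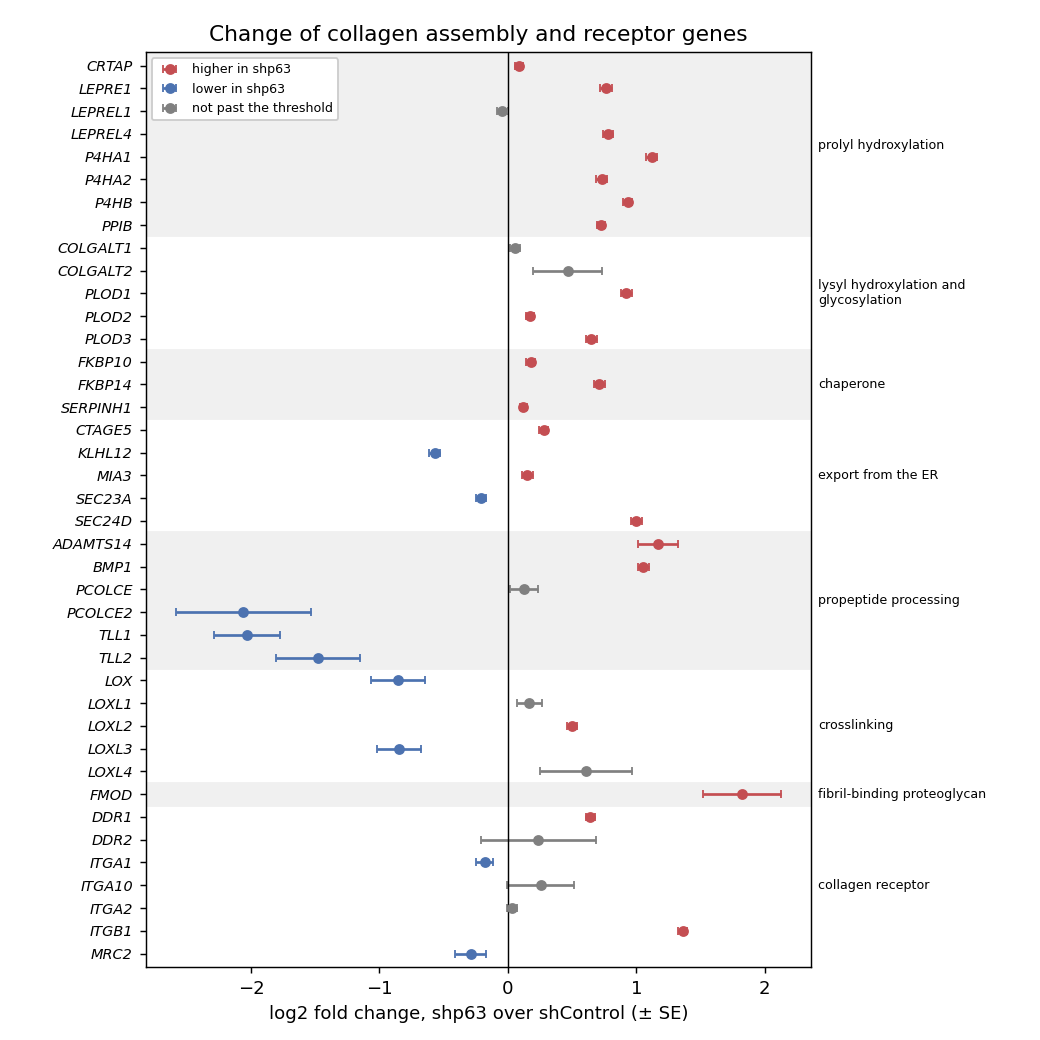
log2 fold change of shp63 over shControl for the 40 tested genes of collagen modification, folding, export, processing, crosslinking and recognition, with bars of 1 standard error, red for genes called higher, blue for genes called lower and grey for genes not past the threshold. Prolyl hydroxylation and chaperone genes lie right of 0 except LEPREL1 (CRTAP is at -0.0014 without a composition factor), and TLL1, TLL2 and PCOLCE2 lie farthest to the left, PCOLCE2 having been tested only through its shControl reads.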

How the data were processed

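The deposited table holds unnormalized whole-number counts of reads per gene (25369 genes, 4 libraries). Per the series' design text the authors aligned reads to GRCh37 (hg19) with TopHat2, counted them with HTSeq and tested with DESeq2; the submitters' processing notes give TopHat2 2.0.13 and HTSeq 0.6.1. Which annotation and strand setting HTSeq used is not given in the sources used here. Libraries held 51926832 to 53924761 counts.

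Here the counts were tested with edgeR 4.0.16 (R 4.3.3): TMM factors, filterByExpr defaults (14901 genes kept), a robust quasi-likelihood fit with group as the only term, and Benjamini-Hochberg adjustment over all genes tested. Standard errors came from the fold change and its F statistic. Alternatives were other scalings, filters, DESeq2 1.42.0, limma-voom (limma 3.58.1), a 1.5-fold test, a replicate block and leaving out each library. P-values rest on the spread between 2 libraries per group, shared across genes (median prior degrees of freedom 18.8, residual 2). The labels number the replicates and do not say whether they were separate cultures.

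Collagen genes were named by the symbol rule, with values per library for those tested, and from each assembly list the 2 risers and 2 fallers with the smallest adjusted p, plus some chosen after their values were seen (LEPREL1, CRTAP, SERPINH1, PCOLCE2, LOXL1, ITGA2 and genes with few reads). The genes and lists were chosen with earlier results of these data known. Coordinates, transcript lengths and coding sequences are those of GENCODE release 44 lifted to GRCh37, which may differ from the authors' annotation.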

Additional observations from a re-analysis of the deposited data

How the results depend on the processing

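The 8 rises and 7 falls among collagen genes stayed at 7 to 10 and 6 to 7 under the other scalings and filters, DESeq2, limma-voom and the omission of single libraries, and the assembly genes at 19 to 23 and 6 to 10. The test against a 1.5-fold change left 6 and 3 collagen genes and 13 and 3 assembly genes, where 22.7% of all genes tested were called (12.7% higher and 10% lower). The share of all genes called also moved with the setting. DESeq2 called 13 of 26 collagen genes and 57.4% of all genes. Without a low-count filter these were 17 of 35 and 56.7%, and with at least 1 CPM in 2 libraries 14 of 15 and 78.4%. With each library left out in turn the collagen counts were 7 to 8 and 6 to 7, and the assembly counts 22 to 23 and 7 to 10. Without a low-count filter COL13A1 and COL22A1 were also called higher (edgeR adjusted p = 0.0480 and 0.0285). Genes near 0 changed sign: with single libraries left out, COL11A2 ran from -0.0069 (without shp63 replicate 1) to 0.18, and COL5A3 from -0.66 to 0.068 (without shp63 replicate 2) on the log2 scale. ITGA2 ran from -0.0063 (without shp63 replicate 2) to 0.072. Library totals without a composition factor moved the median log2 fold change of all genes from -0.01 to -0.10. Under that scaling CRTAP was at -0.0014 and ITGA2 at -0.055, and the calls of CRTAP, SERPINH1 and MIA3 ended. The replicate number as a block gave 8 and 7 collagen and 22 and 9 assembly calls. The labels do not say that a number marks a shared culture day, and the deviations of same-numbered libraries had a weak negative correlation (-0.24 across genes). Crossed pairing, added after seeing the data, gave 8 and 7 collagen and 22 and 9 assembly calls. Depth limits the 14 untested collagen genes, with 13 reads or fewer per library.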

Other observations

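The 36 genes took a larger part of all collagen reads in shp63, and the total was smaller there. All 44 symbols of the collagen form include type IV genes, COL7A1 and COL17A1. They held 144251 and 144885 reads in shControl and 128192 and 120847 in shp63. Of these reads the 36 genes held 22.3% and 22.1% in shControl and 32.8% and 32.7% in shp63. The groups did not overlap, and 2 libraries against 2 cannot give an exact two-sided permutation p under 0.333.

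Promoter sequence is shown for the collagen gene that gained the most reads, COL5A1, and the one that lost the most, COL12A1. Each line holds the 250 bases before the RefSeq start (GRCh38.p14), for COL5A1 chr9:134641553-134641802 on the plus strand and for COL12A1 chr6:75206054-75206303 on the minus strand, 5′ to 3′, with GC boxes (GGGCGG on either strand) in capitals.
COL5A1: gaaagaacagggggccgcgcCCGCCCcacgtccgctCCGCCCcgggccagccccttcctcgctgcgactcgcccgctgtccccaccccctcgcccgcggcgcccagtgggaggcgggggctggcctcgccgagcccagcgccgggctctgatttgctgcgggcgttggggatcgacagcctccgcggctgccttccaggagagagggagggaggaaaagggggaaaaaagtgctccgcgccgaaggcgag
COL12A1: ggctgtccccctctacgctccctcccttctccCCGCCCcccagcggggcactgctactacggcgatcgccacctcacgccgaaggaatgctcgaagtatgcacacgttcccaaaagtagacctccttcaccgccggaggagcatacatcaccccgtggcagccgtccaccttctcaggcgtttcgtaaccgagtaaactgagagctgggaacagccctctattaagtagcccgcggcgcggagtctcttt
A GC box was found in 16 of the 24 collagen genes with a RefSeq window (some with several windows) and in 42.6% of all 35116 windows of that length. TATAAA was found in 5 of the 24 genes and 10.7% of all windows, CCAAT in 6 and 32.0%, and the AP-1 letters TGANTCA and the letters CAGACA each in 1 (COL10A1), against 6.57% and 13.6%. The p53-family decamer was found in none of the 24 and in 5.57% of all windows. All motifs were searched on both strands. COL8A1 and COL2A1 had no window in the table. A match or its absence in these windows says nothing about binding, which was not measured here.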
